A study of Mus musculus with 6 samples.

Results

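Notch receptors, their Jagged ligands and a set of Notch target genes were followed in mouse liver tumours. The 10 genes were chosen by name: the receptors Notch1, Notch2, Notch3 and Notch4, the ligands Jag1 and Jag2, and the targets Hes1, Hey1, Heyl and Nrarp. They were 10 of 39179 genes listed for each library, and each symbol matched 1 gene. The tumours had been raised in wildtype C57BL/6 mice by hydrodynamic injection, which brings DNA into hepatocytes through a fast, large tail vein injection. In 1 group the injected transposons encoded Myc and NrasG12V, the small GTPase Nras locked in its active state by a point mutation, and in the other Myc and Akt1, a kinase that acts below PI3K. Myc was thus shared by both groups, and the labels gave neither the promoter of the transgenes nor the age and sex of the mice. Poly(A) RNA gave 3 libraries of the Myc/NrasG12V tumours and 3 of the Myc/Akt1 tumours, and no normal liver or tumour-free sample was analysed here.

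Notch is a receptor that works by cell contact. A ligand of the Delta or Jagged family on a neighbouring cell pulls on it, proteases cut it, and the freed intracellular part enters the nucleus, where it joins the DNA-binding protein RBPJ and a Mastermind coactivator to switch on target genes such as those of the Hes and Hey repressors. In the liver Jag1 and Notch2 are needed for bile duct formation, and Notch receptors also serve in vessels, Notch4 mainly in endothelium and Notch3 mainly in mural cells. Nrarp is made in response to Notch and in turn lowers the amount of the active receptor fragment.

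Values are in CPM, a gene's reads over all counted reads of its library, scaled up so that each library sums to the same total. The libraries held 17881282 to 27865094 reads, and a count of 0 allows up to 3 reads, which made 0.108 to 0.168 CPM and covers counting error only. As a check of the labels, the Myc/NrasG12V tumours held 171 ± 25.0 CPM of Nras, against 56.0 ± 4.51 CPM in Myc/Akt1 (SD, n = 3 each), and Akt1 at 65.1 ± 19.1 CPM in Myc/NrasG12V and 279.9 ± 33.8 CPM in Myc/Akt1 (SD, n = 3 each). Myc did not pass the test, at 153 ± 29.4 CPM in Myc/NrasG12V and 154 ± 55.0 CPM in Myc/Akt1 (SD, n = 3 each). The hepatocyte markers Alb, Ttr, Apoa1, Serpina1c, Hnf4a and Ahsg had reads in every library, with a summed level of 132087 to 183516 CPM in Myc/NrasG12V and 39026 to 53875 CPM in Myc/Akt1. Most of that sum was Alb, at 110858 ± 17663 CPM in Myc/NrasG12V and 33563 ± 4417 CPM in Myc/Akt1 (SD, n = 3 each), without overlap. Alb did not pass with limma (adjusted p = 0.184) but passed, as higher in Myc/NrasG12V, with edgeR and DESeq2. Ttr lay the other way, also without overlap, and neither Ttr nor Hnf4a passed with limma. Myc/NrasG12V replicate 3 was separated from every other library by principal component 2, which held 11.6% of the variance. Genes were compared with limma on log2(CPM + 1), as Myc/NrasG12V minus Myc/Akt1, and called at a Benjamini-Hochberg adjusted p under 0.05 over all 14365 genes tested. Whether each sample was a different mouse is not in the labels, and the p-values measure the spread between these samples, which may be technical. The median log2 difference of all genes tested was -0.26 on the CPM scale and 0.00 with TMM factors, which allow for libraries of different composition. Log2 differences below are on the CPM scale, understate the change of genes near 1 CPM, and are to be read against that shift.

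All 10 Notch genes passed the filter on low values. Notch1 was higher in Myc/NrasG12V and Nrarp lower, and the other 8 did not pass the test, which does not show that they were equal. Among all genes tested 39.5% were called, 10% higher and 29.5% lower in Myc/NrasG12V, so the count of 2 in 10 says nothing particular about these genes. The median log2 difference of the 10 genes was -0.01. The groups did not overlap for 3 of the 10 genes, Notch1, Jag2 and Nrarp, against 52.7% of all genes tested.

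**Figure D1:**
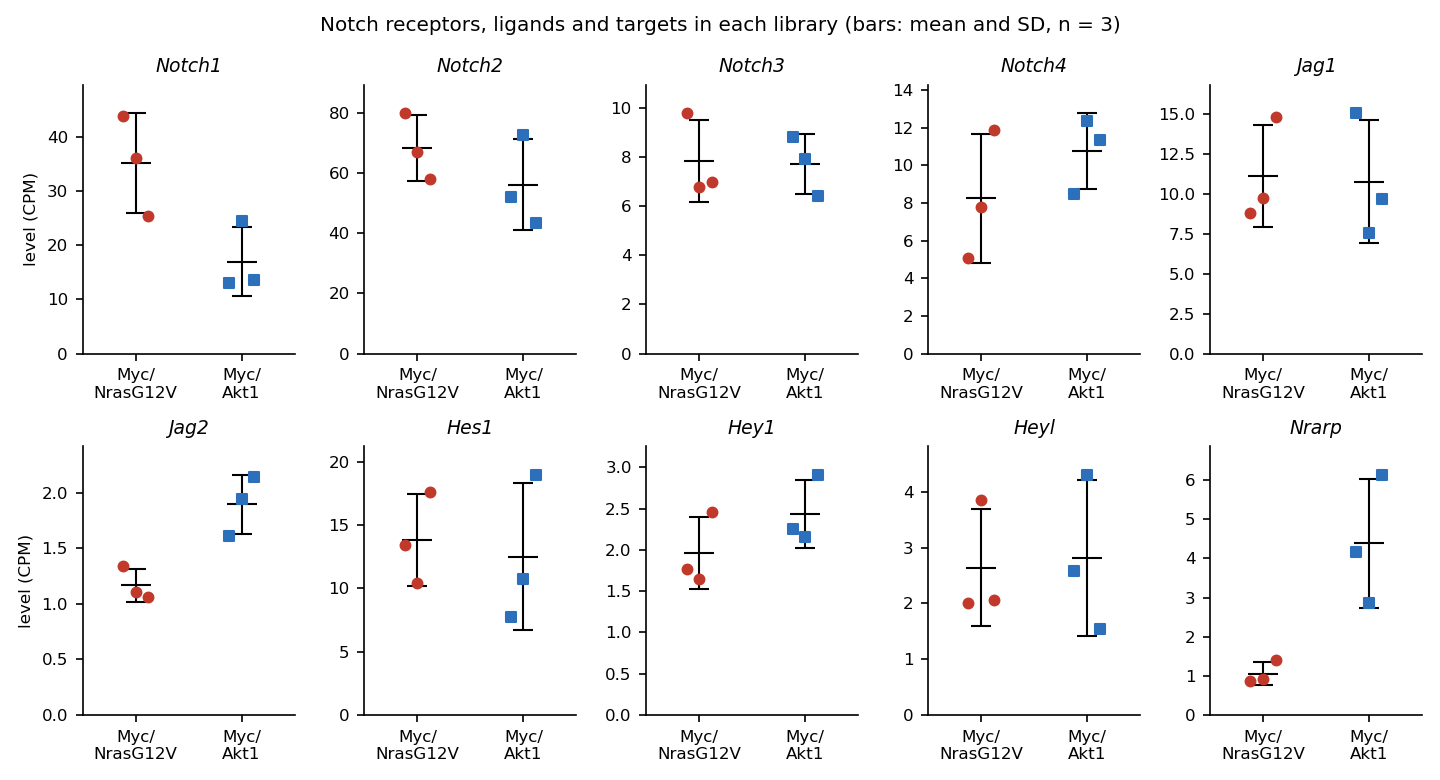
Level of each Notch gene in CPM (y axis, from 0, its own scale in each panel) in the 3 Myc/NrasG12V libraries (red circles) and the 3 Myc/Akt1 libraries (blue squares). Black bars give the mean and SD. Notch1 lies at 25.4 to 43.9 CPM in Myc/NrasG12V and 13.0 to 24.4 CPM in Myc/Akt1, and Nrarp at 0.860 to 1.40 and 2.87 to 6.13 CPM.

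The promoters of the pair of genes that were called are shown with that of Hes5, a textbook Notch target that carries the RBPJ motif. The stretches are the 250 bases before the RefSeq transcription start on GRCm38.p6, written 5′ to 3′ on the strand of the gene: Notch1 from chr2:26503823-26504072, minus strand, Nrarp from chr2:25180508-25180757, plus strand, and Hes5 from chr4:154960673-154960922, plus strand. Capitals mark the letters TGTGGGAA or CGTGGGAA, or their reverse complement, forms of the motif that RBPJ binds.
Notch1: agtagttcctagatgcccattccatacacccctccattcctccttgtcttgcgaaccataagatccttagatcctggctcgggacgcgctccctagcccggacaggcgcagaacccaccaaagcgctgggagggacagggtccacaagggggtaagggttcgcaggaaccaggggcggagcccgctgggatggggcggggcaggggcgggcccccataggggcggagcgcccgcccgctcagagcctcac
Nrarp: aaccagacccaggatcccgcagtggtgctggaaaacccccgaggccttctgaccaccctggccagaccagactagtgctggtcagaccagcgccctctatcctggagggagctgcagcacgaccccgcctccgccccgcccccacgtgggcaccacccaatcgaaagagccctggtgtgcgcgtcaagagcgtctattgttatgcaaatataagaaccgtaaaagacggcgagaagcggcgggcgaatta
Hes5: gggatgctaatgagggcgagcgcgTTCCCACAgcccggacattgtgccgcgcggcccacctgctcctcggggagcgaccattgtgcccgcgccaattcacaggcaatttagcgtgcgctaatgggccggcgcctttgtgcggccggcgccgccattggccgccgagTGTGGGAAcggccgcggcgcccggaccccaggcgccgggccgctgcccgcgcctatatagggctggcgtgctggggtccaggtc
Hes5 holds 2 matches, which begin 226 and 84 bases before the start, on opposite strands. Neither the Notch1 nor the Nrarp stretch holds one. In the whole RefSeq windows, 250 bases before to 50 after the start, 7 of the 10 genes matched an entry (Hes1, Hey1 and Heyl did not), and 0 of these 7 held the shorter core TGGGAA on either strand, against 25.6% of 32851 promoters. The longer forms, which contain that core, were in 2.57% of all promoters. No match says only that these letters are not in these windows.

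Among the receptors, Notch1 was the one that passed the test. Notch1 (ENSMUSG00000026923, chromosome 2, 26457903 to 26516663, GRCm38) was at 43.9, 36.2 and 25.4 CPM in Myc/NrasG12V replicates 1, 2 and 3, against 13.0, 24.4 and 13.6 CPM in Myc/Akt1 replicates 1, 2 and 3. The groups were separate, but the lowest Myc/NrasG12V library, replicate 3, and the highest Myc/Akt1 library, replicate 2, lay close together. The group means, 35.2 ± 9.26 CPM in Myc/NrasG12V and 17.0 ± 6.43 CPM in Myc/Akt1 (SD, n = 3 each), differed 2.07-fold, with a log2 difference of 1.03 ± 0.29 (SE) and a limma adjusted p of 0.0229. The call of Notch1 ended without Myc/NrasG12V replicate 1 (limma adjusted p = 0.0832), without Myc/NrasG12V replicate 2 (0.0674), without Myc/Akt1 replicate 1 (0.0886) and without Myc/Akt1 replicate 3 (0.0713), while the fold stayed between 1.81 and 2.64. It held with every other alternative run, with adjusted p from 7.04e-04 with DESeq2 to 0.0412 without a filter.

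Notch2 (ENSMUSG00000027878), the receptor of bile duct formation, was the most abundant receptor in CPM. Its levels were 80.0, 67.1 and 58.0 CPM in Myc/NrasG12V against 52.1, 73.0 and 43.4 CPM in Myc/Akt1, so the groups overlapped through Myc/Akt1 replicate 2. At 0.30, the log2 difference did not pass (limma adjusted p = 0.317), and its 95% interval ran between -0.21 and 0.81.

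Notch3 (ENSMUSG00000038146), the receptor of mural cells, did not pass the test. It was at 9.79, 6.80 and 6.99 CPM in Myc/NrasG12V against 8.82, 7.93 and 6.41 CPM in Myc/Akt1, with a log2 difference of 0.02 and a 95% interval from -0.52 to 0.56. The interval allows changes of either sign, and the limma adjusted p was 0.967.

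Notch4 (ENSMUSG00000015468), the endothelial receptor, was at 5.06, 7.81 and 11.9 CPM in Myc/NrasG12V against 8.48, 12.4 and 11.4 CPM in Myc/Akt1. Its lowest library was Myc/NrasG12V replicate 1, and the log2 difference of -0.40 had a 95% interval from -1.10 to 0.30 (limma adjusted p = 0.333). Summed over 12 endothelial markers, the same libraries had 223, 345 and 303 CPM in Myc/NrasG12V against 261, 309 and 287 CPM in Myc/Akt1. Myc/NrasG12V replicate 1 was lowest there too, but the highest libraries differed. The marker sum was highest in Myc/NrasG12V replicate 2, and Notch4 in Myc/Akt1 replicate 2. Of those markers 3 were higher in Myc/NrasG12V, Stab2, Lyve1 and Vwf, and 1, Cdh5, lower, beside 10% and 29.5% of all genes tested, and none was at 0 in any library. The call of Cdh5 ended with TMM factors (adjusted p = 0.164) and when replicate 1 or 3 of Myc/NrasG12V, or 1 or 2 of Myc/Akt1, was left out. That of Stab2 ended without a filter and without replicate 2 or 3 of Myc/NrasG12V or 1 or 2 of Myc/Akt1 (adjusted p up to 0.154). The 10 mural and stellate markers summed to 306 to 330.5 CPM in Myc/NrasG12V and 263 to 402 CPM in Myc/Akt1, with 0 higher, 1 (Cspg4) lower and none at 0 in any library. In such bulk samples fewer cells of a type and less RNA per cell cannot be told apart, and the part of these cells in the receptor levels was not tested.

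Levels of different genes were compared per kb of annotated exon. Within each library the 4 receptors were expressed as shares of their sum, a measure that does not depend on how libraries are scaled. Notch1 made up 25.0%, 24.0% and 18.8% of the receptor total in Myc/NrasG12V, against 11.6%, 15.6% and 13.3% in Myc/Akt1. Every Myc/NrasG12V library lay above every Myc/Akt1 library. Notch2 took more than any other receptor in every library, with 58.5 ± 1.77% in Myc/NrasG12V and 59.6 ± 3.07% in Myc/Akt1 (SD, n = 3 each), which differed by less than the spread between replicates. Notch3 took 8.95 ± 0.939% and 11.3 ± 2.46%, and Notch4 9.90 ± 5.23% and 15.6 ± 3.46% (SD, n = 3 each, Myc/NrasG12V before Myc/Akt1). The shares are descriptions and were not tested. With the length of the longest annotated transcript in place of all exons, Notch1 held 29.4 ± 4.20% in Myc/NrasG12V and 18.1 ± 2.55% in Myc/Akt1 (SD, n = 3 each).

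**Figure D2:**
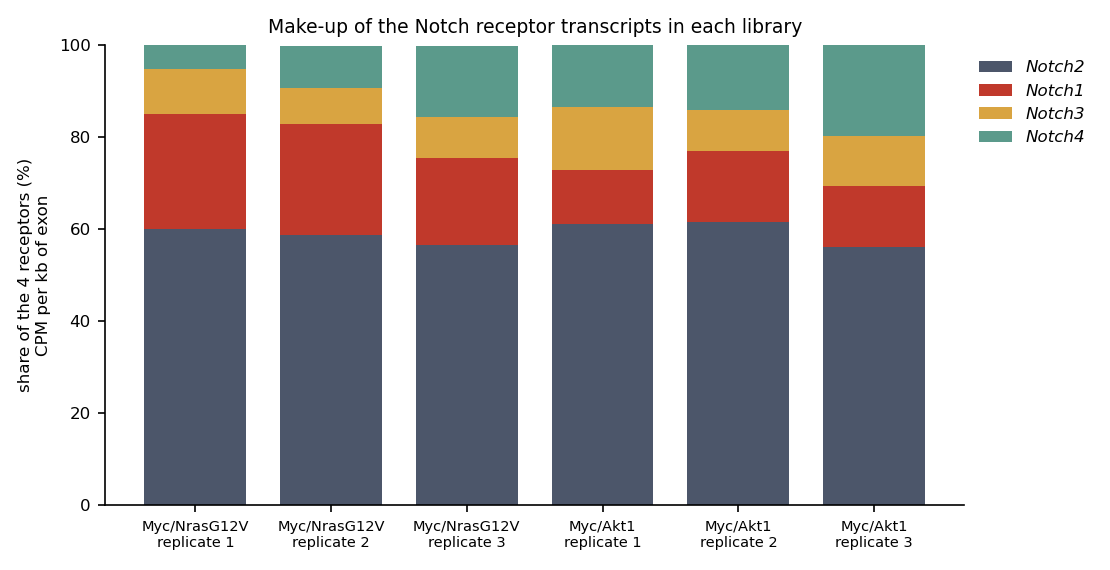
Share of Notch1, Notch2, Notch3 and Notch4 in the sum of the 4 receptors (y axis, percent, CPM per kb of exon) in each library (x axis). Notch2 fills 56.1% to 61.5% of every bar, and the Notch1 segment is 18.8% to 25.0% in the Myc/NrasG12V libraries and 11.6% to 15.6% in the Myc/Akt1 libraries.

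The Jagged ligands did not pass the test. Jag1 (ENSMUSG00000027276), the ligand of bile duct formation, was at 8.79, 9.73 and 14.8 CPM in Myc/NrasG12V against 15.02, 7.54 and 9.68 CPM in Myc/Akt1. The groups covered nearly the same range, and the log2 difference was 0.06 (95% interval -0.62 to 0.74, limma adjusted p = 0.892). Jag2 (ENSMUSG00000002799), the other Jagged ligand, was scarcer, with 19 to 28 reads a library in Myc/NrasG12V and 38 to 54 in Myc/Akt1. It was at 1.34, 1.10 and 1.06 CPM in Myc/NrasG12V against 1.61, 1.94 and 2.14 CPM in Myc/Akt1. Every Myc/NrasG12V library was below every Myc/Akt1 library, and the means differed 1.62-fold, but the log2 difference of -0.42 (95% interval -0.84 to 0.01) had a limma adjusted p of 0.109. Per kb, Jag1 was 91.5 ± 2.81% of the sum of Jag1 and Jag2 in Myc/NrasG12V and 86.2 ± 4.97% in Myc/Akt1 (SD, n = 3 each).

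Of the targets, the repressor genes did not pass and the feedback gene Nrarp did. Hes1 (ENSMUSG00000022528), a repressor widely used as a readout of Notch, was at 13.4, 10.4 and 17.6 CPM in Myc/NrasG12V against 7.72, 10.8 and 18.9 CPM in Myc/Akt1. Both groups spread over about the same range, with the highest and the lowest library both in Myc/Akt1. This left a log2 difference of 0.19 (95% interval -0.57 to 0.95, limma adjusted p = 0.678). Hey1 (ENSMUSG00000040289), a Hes-related repressor active in vessels and heart, was at 1.77, 1.65 and 2.46 CPM in Myc/NrasG12V against 2.25, 2.15 and 2.91 CPM in Myc/Akt1, with a log2 difference of -0.22 (95% interval -0.70 to 0.26). Heyl (ENSMUSG00000032744), its relative, was at 2.01, 3.86 and 2.07 CPM in Myc/NrasG12V against 2.59, 4.31 and 1.55 CPM in Myc/Akt1, with a log2 difference of -0.04 (95% interval -0.77 to 0.69). For each of these genes the groups overlapped. The sign of the Heyl difference turned with each of the other scaling factors tried, and that of Hey1 with upper-quartile factors.

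Nrarp (ENSMUSG00000078202, chromosome 2, 25180758 to 25183339) was at 0.860, 0.918 and 1.40 CPM in Myc/NrasG12V, against 4.16, 2.87 and 6.13 CPM in Myc/Akt1. No value was shared, and the lowest Myc/Akt1 library, replicate 2, was still above the highest Myc/NrasG12V library, replicate 3. These levels rested on 18, 20 and 25 reads in Myc/NrasG12V and 98, 80 and 135 reads in Myc/Akt1. The means, 1.06 ± 0.295 CPM in Myc/NrasG12V and 4.39 ± 1.64 CPM in Myc/Akt1 (SD, n = 3 each), made Nrarp 4.14-fold higher in Myc/Akt1, with a log2 difference of -1.35 ± 0.27 (SE) and a limma adjusted p of 0.00471. The call of Nrarp held in all 16 alternatives run, with adjusted p from 4.33e-04 to 0.0200, and leaving out 1 library kept the fold between 3.32 and 4.94. Gm38287 is annotated on the opposite strand within the span of Nrarp, and antisense loci also overlap Notch1, Notch3 and Notch4. The strand setting of the counting was not given in the sources used here, so reads of these partners cannot be told apart.

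**Figure D3:**
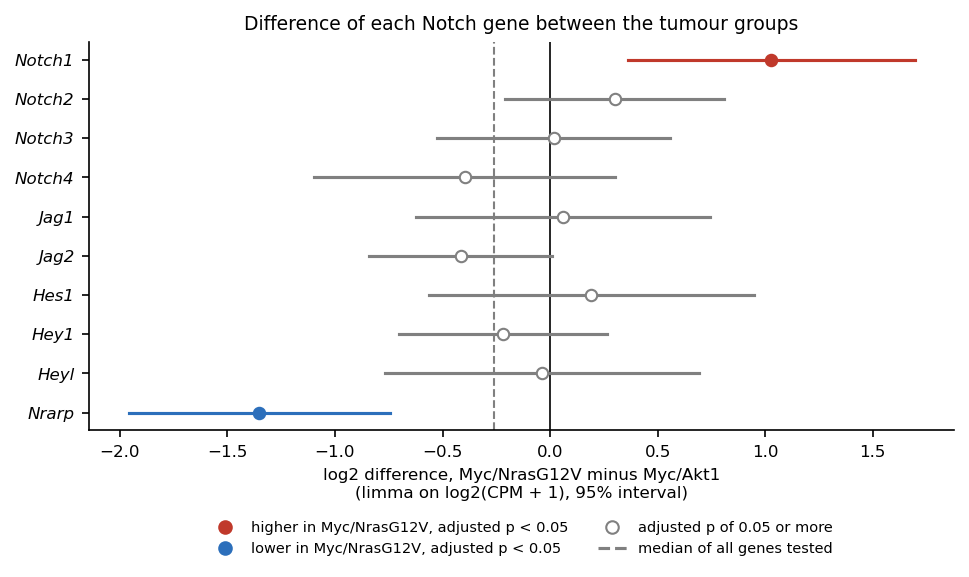
Log2 difference of each Notch gene, Myc/NrasG12V minus Myc/Akt1, with its 95% interval (x axis; limma on log2(CPM + 1)). Filled points passed at an adjusted p under 0.05, open points did not, and the dashed line is the median of all genes tested, -0.26. Notch1 lies at 1.03 and Nrarp at -1.35, and the intervals of the other 8 genes include 0.

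Ordered by level per kb of exon, Hes1 and Notch2 led in both groups. In Myc/NrasG12V they stood at 6.78 ± 1.78 and 6.34 ± 1.02 CPM per kb, and in Myc/Akt1 at 6.13 ± 2.85 and 5.21 ± 1.41 CPM per kb (SD, n = 3 each), and the pair overlapped within each group. Next in Myc/NrasG12V came Notch1 at 2.47 ± 0.651 CPM per kb, Jag1 at 1.90 ± 0.551, Notch4 at 1.02 ± 0.424 and Notch3 at 0.971 ± 0.207 CPM per kb (SD, n = 3 each). Notch1 overlapped Jag1 there, and Notch4 overlapped Notch3, while Jag1 lay above Notch4 in every library pair. Below the range of Notch3, Hey1, Heyl and Nrarp followed at 0.600, 0.517 and 0.410 CPM per kb with overlapping ranges. The range of Notch4, which began at 0.628 CPM per kb, overlapped those of Hey1 and Heyl, which each reached 0.754 CPM per kb. Jag2 closed the order at 0.168 CPM per kb, below the range of Nrarp.

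In Myc/Akt1 the middle of the order was flatter. Jag1 at 1.84 ± 0.661 CPM per kb, Nrarp at 1.70 ± 0.637, Notch4 at 1.33 ± 0.251, Notch1 at 1.20 ± 0.452 and Notch3 at 0.955 ± 0.151 CPM per kb (SD, n = 3 each) each overlapped the next. Nrarp thus held rank 9 of the 10 genes in Myc/NrasG12V and rank 4 in Myc/Akt1. With the longest transcript as the length, Nrarp kept rank 9 in Myc/NrasG12V and had rank 5 in Myc/Akt1, since Notch1 then came before it. Hey1, Heyl and Jag2 were at 0.746, 0.550 and 0.272 CPM per kb in Myc/Akt1, and each overlapped its neighbour in the order.

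By profile over the 6 libraries, the genes nearest to Notch1 were Colec10, Chmp4c and Phgdh. Likeness was the root mean square distance between log2(CPM + 1) values centred on the mean of each gene, 0.14, 0.15 and 0.17 for these genes against a median of 0.82 over 14364 genes. Phgdh, the first enzyme of serine synthesis, was at 62.5, 66.8 and 42.2 CPM in Myc/NrasG12V and 27.3, 48.0 and 26.0 CPM in Myc/Akt1. Like Notch1, it was lowest in replicate 3 of Myc/NrasG12V and highest in replicate 2 of Myc/Akt1, but its groups overlapped. The nearest to Jag1 were Gm17638, A430105J06Rik and Mir99ahg, at distances of 0.12, 0.12 and 0.12 against a median of 0.50 for Jag1. The nearest to Hes1 were Crocc, Med25 and the ribosomal protein gene Rpl13, at 0.08, 0.09 and 0.10 against a median of 0.57 for Hes1. With 6 libraries and so many genes, small distances arise readily, and these are descriptions.

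Around the Notch genes, the wider machinery of the pathway gave calls in both directions. Of 49 other pathway genes, 45 passed the filter, and 9 of these were higher and 8 lower in Myc/NrasG12V, beside the 10% and 29.5% of all genes tested. Their median log2 difference was 0.05. In either direction 39.5% of all genes tested were called, so the number of calls says nothing particular about the pathway. The split depended on scaling: with TMM factors 13 were higher and 3 lower, where 16.2% and 17.9% of all genes were called. With edgeR, which used TMM factors too, the counts were also 13 and 3, where 16.6% and 17.5% were called. The 3 that stayed lower were Psen2, Neurl1b and Dtx4. The 4 that TMM factors added as higher were Ep300, Mib1, Ncstn and Numb.

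**Figure D4:**
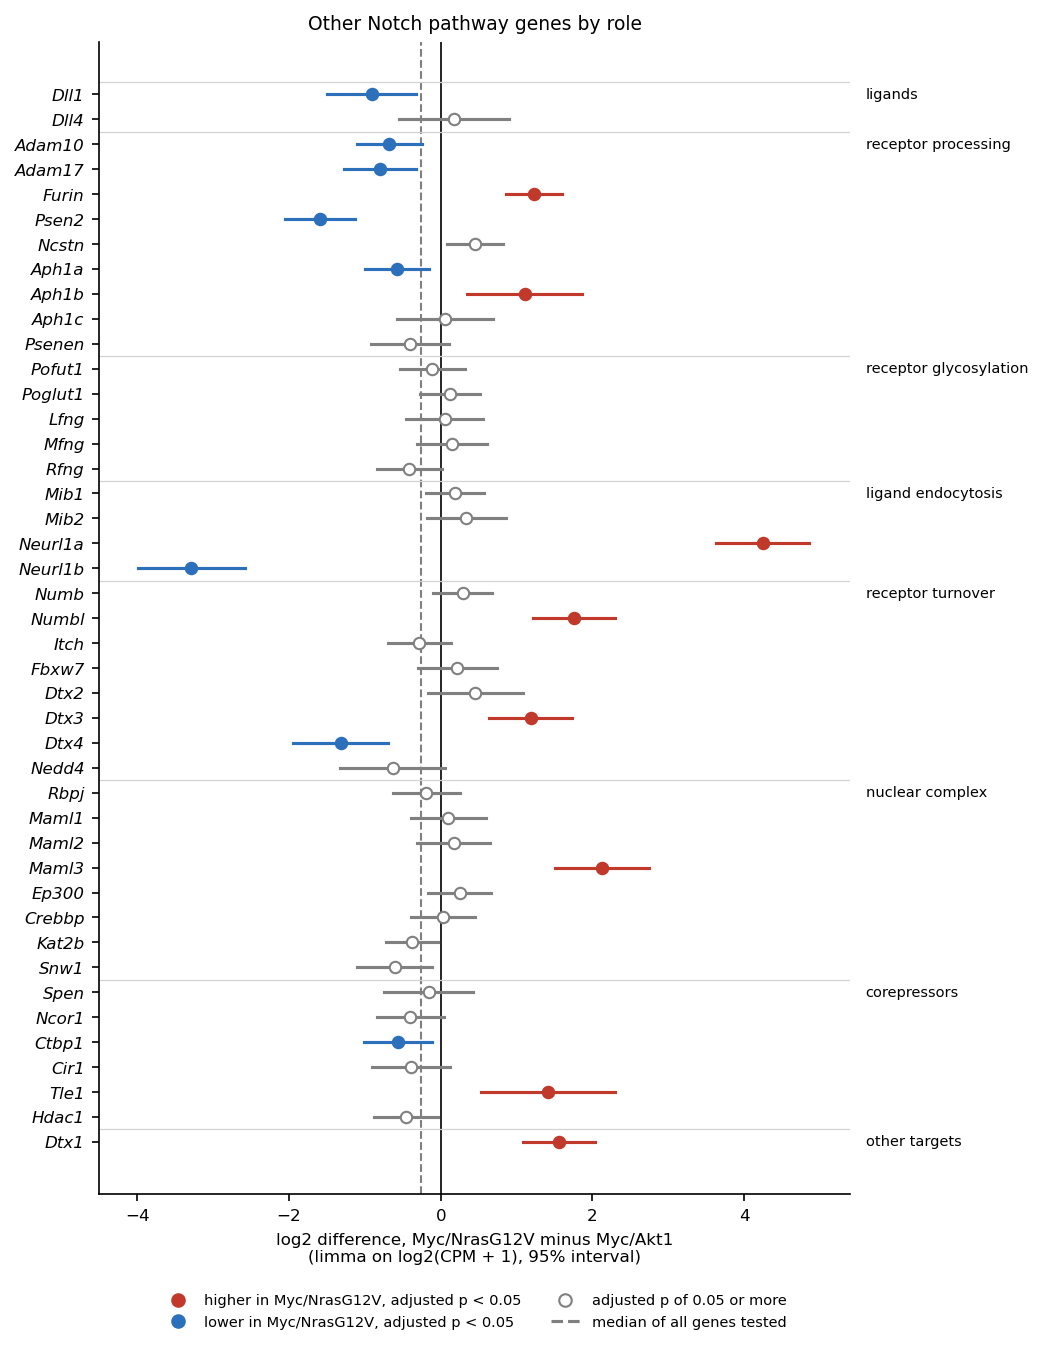
Log2 difference, Myc/NrasG12V minus Myc/Akt1, with its 95% interval (x axis) for other Notch pathway genes that passed the filter, grouped by role from ligands at the top to other targets at the bottom. Neurl1a at 4.24 and Neurl1b at -3.29 are the extremes, filled points passed at an adjusted p under 0.05, and the dashed line is the median of all genes tested.

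The ubiquitin ligases of ligand endocytosis showed the largest contrast. Neurl1a and Neurl1b are relatives of Neuralized, which in Drosophila marks Notch ligands for the endocytosis that makes them active. Neurl1a was at 38.1, 21.5 and 23.4 CPM in Myc/NrasG12V against 0.382, 0.395 and 0.636 CPM in Myc/Akt1. Neurl1b was at 1.38, 1.97 and 1.34 CPM in Myc/NrasG12V against 33.8, 26.7 and 14.95 CPM in Myc/Akt1. In each tumour group 1 of these relatives was abundant in every library and the other scarce in every library. Neurl1a was 58.8-fold higher in Myc/NrasG12V (limma adjusted p = 3.78e-05), with only 9 to 14 reads a library in Myc/Akt1, and Neurl1b was 16.1-fold higher in Myc/Akt1 (limma adjusted p = 1.78e-04). Mib1, the main ligase of ligand endocytosis in mammals, was at 117 ± 17.5 CPM in Myc/NrasG12V and 102 ± 6.99 CPM in Myc/Akt1 (SD, n = 3 each) and did not pass on the CPM scale. Mib2 did not pass either.

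Genes of receptor cleavage went both ways, 2 of 10 higher and 4 lower, beside 10% and 29.5% of all genes tested. Furin, the protease of the first cut, made in the Golgi, was at 292, 312 and 315 CPM in Myc/NrasG12V against 116, 126 and 149 CPM in Myc/Akt1 (2.35-fold, limma adjusted p = 7.17e-04). Adam10 and Adam17, the proteases of the cut that follows ligand binding, were 1.62-fold and 1.80-fold higher in Myc/Akt1 (limma adjusted p = 0.0211 and 0.0159). Both calls ended with TMM factors (adjusted p = 0.135 and 0.0951) and without any 1 of Myc/NrasG12V replicate 1 or Myc/Akt1 replicates 1 or 2, and that of Adam10 also without Myc/NrasG12V replicate 2. Gamma-secretase makes the last cut, and Psen2 encodes a catalytic subunit of it. Psen2 was at 53.3, 78.5 and 62.0 CPM in Myc/NrasG12V against 159.5, 217 and 213 CPM in Myc/Akt1, 3.04-fold higher in Myc/Akt1 (limma adjusted p = 6.08e-04). Aph1 is another subunit. Aph1b was 2.30-fold higher in Myc/NrasG12V (limma adjusted p = 0.0279) and Aph1a 1.52-fold higher in Myc/Akt1 (limma adjusted p = 0.0362). The call of Aph1a ended with TMM factors (adjusted p = 0.289) and without any 1 library other than Myc/Akt1 replicate 3, and that of Aph1b without a filter (adjusted p = 0.0673) and when replicate 1 or 2 of Myc/NrasG12V, or 1 or 3 of Myc/Akt1, was left out (adjusted p up to 0.0939). Psenen and Aph1c did not pass, and Ncstn passed, as higher in Myc/NrasG12V, with TMM factors but not on the CPM scale.

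The Delta ligands gave 1 call. Dll1, a ligand on neighbouring cells that activates Notch, was at 1.72, 1.56 and 1.96 CPM in Myc/NrasG12V against 3.44, 3.23 and 6.27 CPM in Myc/Akt1, 2.47-fold higher in Myc/Akt1 (limma adjusted p = 0.0229). No value was shared, but the call ended with TMM factors (adjusted p = 0.0681), without a filter (0.0731) and without Myc/NrasG12V replicate 1 (0.0624) or 2 (0.0695). Dll4, the ligand of sprouting vessels, was at 4.30, 8.03 and 11.3 CPM in Myc/NrasG12V and 5.94, 6.32 and 7.18 CPM in Myc/Akt1 and did not pass (limma adjusted p = 0.704). Dll3 was too low to be tested, with 0 reads in 5 libraries and 0.0909 CPM in Myc/Akt1 replicate 3. The 5 genes of receptor glycosylation, Pofut1, Poglut1, Lfng, Mfng and Rfng, gave 0 calls with limma, edgeR or DESeq2, and with limma none had an unadjusted p under 0.05.

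In receptor turnover, 2 of 8 genes were higher and 1 lower, beside 10% and 29.5% of all genes tested. Numbl, a relative of the Notch antagonist Numb, was at 8.74, 6.52 and 8.44 CPM in Myc/NrasG12V against 1.57, 1.18 and 2.18 CPM in Myc/Akt1 (4.80-fold, limma adjusted p = 8.16e-04). Numb itself was at 45.7 ± 6.53 and 37.0 ± 2.09 CPM (SD, n = 3 each, Myc/NrasG12V before Myc/Akt1) and did not pass on the CPM scale. Deltex proteins are ubiquitin ligases, and Deltex of Drosophila is known for binding Notch and steering its traffic. Dtx3 was 2.43-fold higher in Myc/NrasG12V (limma adjusted p = 0.00526) and Dtx4 2.69-fold higher in Myc/Akt1 (limma adjusted p = 0.00618). Dtx1, of the same family and itself switched on by Notch in lymphocytes, was at 2.87, 2.53 and 3.69 CPM in Myc/NrasG12V against 0.170, 0.395 and 0.545 CPM in Myc/Akt1. That was 8.18-fold (limma adjusted p = 7.71e-04), with only 4 to 12 reads a library in Myc/Akt1. Dtx1 was thus higher in the tumours in which Nrarp, another gene that Notch induces, was lower.

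**Figure D5:**
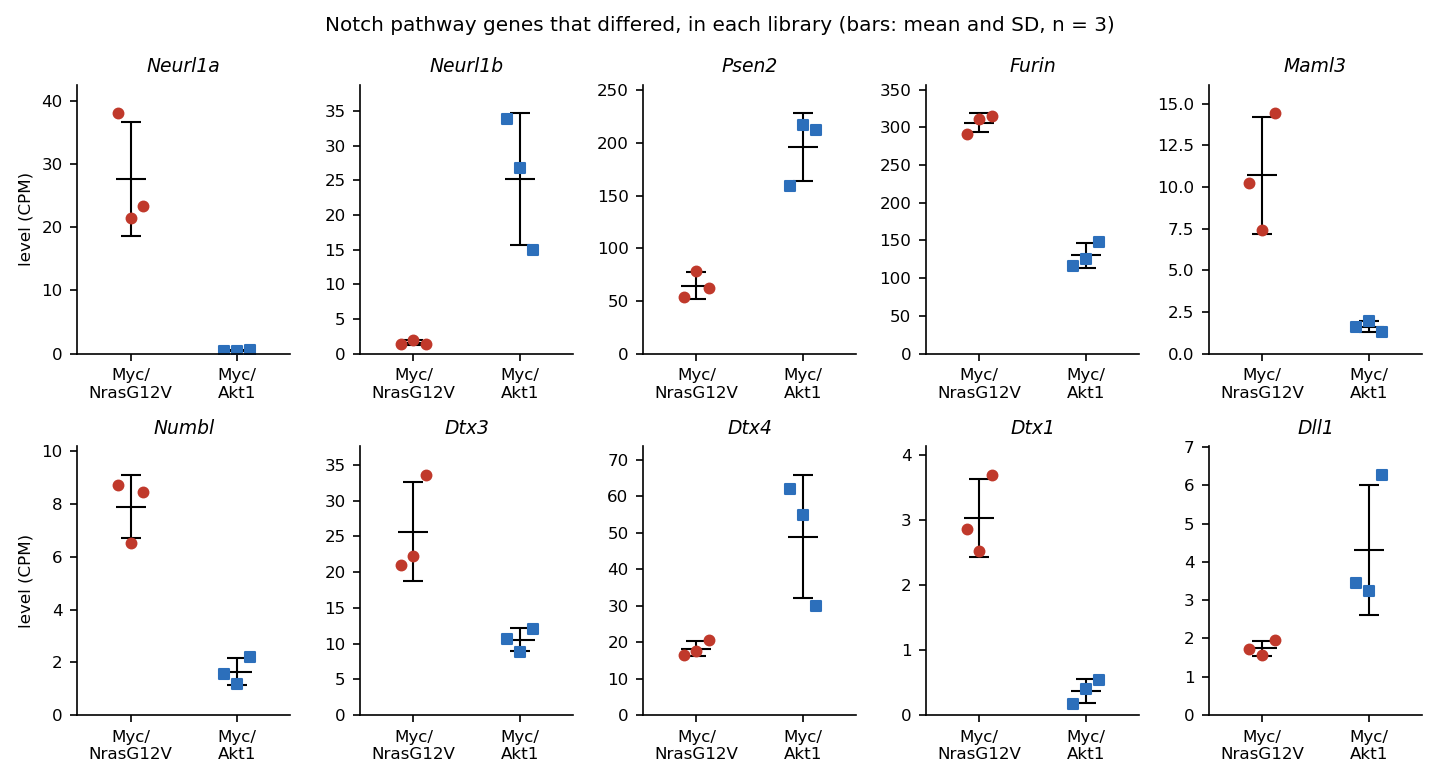
Level in CPM (y axis, from 0, its own scale in each panel) of 10 pathway genes that passed the test, in the 3 Myc/NrasG12V libraries (red circles) and the 3 Myc/Akt1 libraries (blue squares), with mean and SD. Neurl1a, Furin, Maml3, Numbl, Dtx3 and Dtx1 are higher in all 3 Myc/NrasG12V libraries, and Neurl1b, Psen2, Dtx4 and Dll1 in all 3 Myc/Akt1 libraries.

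Of the nuclear complex, only Maml3 passed among 8 genes with all libraries on the CPM scale, where 39.5% of all genes tested were called. Ep300 passed too, as higher in Myc/NrasG12V, with TMM factors, edgeR and DESeq2. Maml3, a Mastermind coactivator of the Notch fragment, was at 10.3, 7.44 and 14.4 CPM in Myc/NrasG12V against 1.61, 1.94 and 1.27 CPM in Myc/Akt1 (6.66-fold, limma adjusted p = 6.25e-04). Its relatives Maml1 and Maml2 lay at log2 differences of 0.10 and 0.17 and did not pass. Rbpj, the DNA-binding partner, was at 11.2, 11.2 and 12.9 CPM in Myc/NrasG12V and 13.5, 14.6 and 12.5 CPM in Myc/Akt1, with a log2 difference of -0.19 and a 95% interval from -0.63 to 0.25. Among 7 corepressor genes 2 were higher in Myc/NrasG12V and 1, Ctbp1, lower, beside 10% and 29.5% of all genes tested. Tle1, of the Groucho family that Hes proteins recruit, was among the higher ones, at 62.7, 65.4 and 192 CPM in Myc/NrasG12V against 32.5, 31.9 and 38.3 CPM in Myc/Akt1. Its 3.11-fold difference became 1.87-fold without Myc/NrasG12V replicate 3, and its call (limma adjusted p = 0.0199) ended without Myc/Akt1 replicate 1 or 2. Ctbp1 was 1.48-fold higher in Myc/Akt1 (limma adjusted p = 0.0486), and that call ended with TMM factors (adjusted p = 0.301), without a filter (0.0668) and without any 1 library other than Myc/NrasG12V replicate 3.

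Apart from Dtx1, given above, the other Notch targets listed were nearly silent. Hes5, whose promoter is printed above, had 0 reads in 5 libraries and 0.0454 CPM in Myc/Akt1 replicate 3, below the limit of 3 reads. Hes7, the repressor of the segmentation clock, had at most 0.0718 CPM in any library. Hey2, a vascular relative of Hey1, was at 0.0478, 0.367 and 0.447 CPM in Myc/NrasG12V against 0.170, 0.323 and 0.636 CPM in Myc/Akt1. None of these 3 genes passed the filter on low values.

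Biliary genes, in which Notch acts during liver development, were set beside these values. Of 10 cholangiocyte and progenitor markers 8 were tested, and 2, Spp1 and Prom1, were higher in Myc/NrasG12V and 0 lower, beside 10% and 29.5% of all genes tested. Sox9, a transcription factor of bile duct cells that Notch can induce, was at 12.2, 18.2 and 11.7 CPM in Myc/NrasG12V against 10.2, 9.76 and 4.82 CPM in Myc/Akt1. Every Myc/NrasG12V value was the higher, but the limma adjusted p was 0.0919. Spp1, osteopontin, was at 951, 517 and 409 CPM in Myc/NrasG12V against 250, 115 and 250 CPM in Myc/Akt1 (3.05-fold, limma adjusted p = 0.0115). Summed over the list, the markers were at 537 to 1055 CPM in Myc/NrasG12V and 144 to 278 CPM in Myc/Akt1, and most of each sum was Spp1. The part of such cells in the Notch gene levels was not tested.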

How the data were processed

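Poly(A) RNA of 6 liver tumour samples was read from one end in strand-marking libraries, per the labels' protocols. The authors deposited 1 CPM value per gene and library, and Subread 1.6.3, STAR 2.6.1c, GRCm38 and edgeR 3.22.5 appear in the submitters' processing notes. Not given in the sources used here were the strand setting, the treatment of reads with several matches and the annotation release. All deposited CPM values above 0 (100%) were whole multiples of 1 read within 0.01 read, so reads were recovered. edgeR 4.0.16 on them, which used TMM factors, called 4893 genes. With limma the count was 5677 on the CPM scale and 4896 with TMM factors.

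Of 39179 genes, 14365 passed the filterByExpr rule of edgeR (0.457 CPM in 3 libraries and 15 reads in total). They were fitted with limma 3.58.1 in R 4.3.3 (eBayes with a trend, two-sided, no covariate) on log2(CPM + 1). A fold is the mean CPM of 1 group over that of the other. The procedure was tested on simulated data. Lengths and positions came from GENCODE M21 (GRCm38), which matched 96.0% of identifiers, and promoters from RefSeq on GRCm38.p6. An exact permutation test of 3 against 3 samples cannot give a p below 0.1, so none was used.

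The members and gene lists were chosen with earlier results of these data known. Named were all 10 members, the delivered genes, the 2 genes of lowest adjusted p in each pathway role, the 2 most abundant of each marker list and the 3 nearest profiles of Notch1, Jag1 and Hes1. Other genes were chosen after their values were seen. Some genes of these lists are counted but not reported here by name. Alternatives were other scaling factors, pseudocounts, filters, edgeR, DESeq2 1.42.0, a replicate block and leaving out each library.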

Additional observations from a re-analysis of the deposited data

How the results depend on the processing

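Nrarp kept its call under all 16 alternatives, and Notch1 lost its call only when 1 of 4 libraries was left out. The other 8 Notch genes passed under none. Over leave-one-out fits the number of Notch genes called higher was 0 to 1. In the wider list, 3 genes were lower with TMM, median-of-ratios or upper-quartile factors or edgeR, and 14 were higher and 4 lower with DESeq2, while leave-one-out fits gave 6 to 9 higher and 3 to 11 lower. Of all calls, the share higher in Myc/NrasG12V was 25.3% for CPM, 47.6% with TMM, 48.5% with median-of-ratios and 52.1% with upper-quartile factors. With the longest transcript, the Notch1 share was 29.4% in Myc/NrasG12V and 18.1% in Myc/Akt1, the Notch2 share 52.2% and 54.7%, and the Notch3 share 7.84% in Myc/NrasG12V. Signs turned in log2 differences that had not passed. With TMM, median-of-ratios, upper-quartile factors, edgeR and DESeq2, Heyl was at 0.19, 0.19, 0.23, 0.24 and 0.25 and Col1a2 at 0.12, 0.13, 0.18, 0.0734 and 0.0778, and Hey1 was at 0.0319 with upper-quartile factors. Over leave-one-out fits the ranges were -0.13 to 0.11 for Notch3, -0.15 to 0.31 for Jag1, -0.0787 to 0.52 for Hes1, -0.30 to 0.23 for Heyl, -0.18 to 0.30 for Myc, -0.11 to 0.50 for Dll4 and -0.42 to 0.0763 for Col1a2. They were -0.0652 to 0.26 for A430105J06Rik, -0.20 to 0.21 for Mir99ahg, -0.0947 to 0.43 for Crocc and -0.0887 to 0.54 for Rpl13. The causes were not tested. Same-numbered libraries had correlations of -0.0812, 0.113 and 0.0848 between their deviations, so the numbers were not taken as pairs. With the replicate block 5530 genes were called, the calls of the Notch genes did not change, and Aph1a lost its call (adjusted p = 0.0518). Leave-one-out fits assume a common spread in both groups. At 1 to 2 CPM, as for Jag2, counting error limits what can be seen.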

Other observations

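The marker counts here stand beside 10% of all genes tested called higher in Myc/NrasG12V and 29.5% called lower. Of 5 neutrophil genes 4 were higher in Myc/NrasG12V and 0 lower, with summed levels of 21.2, 52.7 and 173 CPM in Myc/NrasG12V against 2.04, 1.65 and 1.41 CPM in Myc/Akt1. Ngp and Camp were at 0 in at least 1 library. Of 4 erythroid genes 3 were higher, with 225, 804 and 1467 CPM in Myc/NrasG12V against 50.9, 45.1 and 85.7 CPM in Myc/Akt1. For both lists replicate 3 was the highest Myc/NrasG12V library. Of 6 T cell genes 3 were higher, with sums of 9.50 to 25.6 CPM in Myc/NrasG12V and 5.05 to 6.17 CPM in Myc/Akt1. Cd4 lay the other way, at 1.29 ± 0.547 CPM in Myc/NrasG12V and 2.49 ± 0.489 CPM in Myc/Akt1 (SD, n = 3 each), without overlap, but did not pass. Of 7 macrophage genes 2, Clec4f and Marco, were higher, with sums of 218 to 371 CPM in Myc/NrasG12V and 148 to 197 CPM in Myc/Akt1. The call of Clec4f ended without replicate 1 or 2 of Myc/NrasG12V or 1 or 3 of Myc/Akt1 (limma adjusted p from 0.0512 to 0.0863). Of 6 hepatocyte genes 3, Apoa1, Serpina1c and Ahsg, were higher and 0 lower. The call of Ahsg ended without a filter (limma adjusted p = 0.0856). Ttr lay the other way, at 2281 ± 904 CPM in Myc/NrasG12V and 4332 ± 1052 CPM in Myc/Akt1 (SD, n = 3 each), without overlap, but did not pass (limma adjusted p = 0.0785). Hnf4a, a transcription factor of hepatocytes, was at 628 ± 53.6 CPM in Myc/NrasG12V and 601 ± 123 CPM in Myc/Akt1 (SD, n = 3 each) and did not pass.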
